A study of Mus musculus with 6 samples.

Results

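ABC transporters are membrane proteins that use the energy of ATP to move lipids, sterols, drugs, conjugated metabolites and metal compounds across membranes. A complete transporter has a pair of ATP-binding cassettes and a pair of membrane domains. Some genes encode the whole pump and others encode a subunit that must pair with a partner. In the small intestine, pumps of the brush border return plant sterols, drugs and conjugates to the lumen, pumps of the basolateral membrane pass sterols and conjugates towards the blood, and other members serve peroxisomes, mitochondria and lysosomes. The ABCE and ABCF subfamilies carry the cassettes but no membrane domain and work on ribosomes, so they are ABC proteins but not transporters.

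The members were the genes of the deposited table whose symbols run from Abca to Abcg with a number, without Abcb11. The rule gave 42 of 19616 genes, 11 in ABCA, 8 in ABCB, 10 in ABCC, 3 in ABCD, 1 in ABCE, 3 in ABCF and 6 in ABCG. They were followed by RNA-Seq in jejunal intestinal epithelial cells (IEC) of 3 control and 3 Hdac1/2-deleted mice, all aged 3 months. The control mice were wild-type and are named C3-3, C3 and C1, and the mutant mice were villin-Cre Hdac1-/-; Hdac2-/- and are named H9, H5 and H1. Both groups are described as of a mixed C57BL/6J X 129SV X CD1 background. The villin promoter restricts the Cre recombinase to the gut epithelium, and the cells were enriched with EDTA and not sorted, so RNA of other cell types can be present. In such bulk RNA, fewer cells of a type and less RNA per cell cannot be told apart. Of the 42 members, 33 had enough counts to be tested, among 15618 genes tested in all.

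The libraries held 36111035 (H5) to 65902344 (C1) counts over all genes. The targeted gene Hdac1 lay at 34.5 to 48.8 CPM (gene counts relative to the TMM-scaled library size) in control mice and at 2.53 to 4.81 CPM in Hdac1/2-deleted mice. Hdac2 lay at 23.6 to 32.8 CPM in control mice and at 21.4 to 26.6 CPM in mutant mice, with overlap. Gene counts need not fall when only part of a gene is removed, and whether this holds for Hdac2 was not tested. The summed level of 7 epithelial markers was 11224 to 12895 CPM in control mice and 9269 to 11463 CPM in mutant mice. The sum of 10 enterocyte markers was 85307 to 98094 CPM in control mice and 34144 to 46893 CPM in mutant mice. Without Apoa1 and Apoa4, which make up most of that sum in controls, it was 28135 to 36122 CPM in control and 19264 to 25006 CPM in mutant mice. Of the 10 enterocyte markers, 4 decreased and 1, Alpi, increased, and their part in the results below was not tested. Control C3 had 3082 counts over 4 Y-linked genes, against 1 to 13 counts in each of the other mice.

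Single members of the family differed between Hdac1/2-deleted and control mice, in both directions. A gene was called increased or decreased at an adjusted p of at most 0.05, given by the quasi-likelihood test of edgeR and adjusted by the Benjamini-Hochberg method over every tested gene, together with a change of at least 2-fold. Under this rule 3 of the 33 tested members increased (9.09%), against 12.4% of all genes tested, and 5 decreased (15.2%), against 12.7% of all genes. Both shares were near those of all genes. Abcc6, Abca5, Abcd4, Abca7 and Abcg8 decreased, and Abca14, Abcc4 and Abcc5 increased. With the adjusted p alone, 9 members were higher (27.3%, against 20.5% of all genes) and 7 were lower (21.2%, against 20.3%). The median log2 fold change over the tested members was 0.06, against -0.01 over all genes. The levels of 16 members did not overlap between the groups (48.5%), against 53.2% of all genes.

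**Figure D1:**
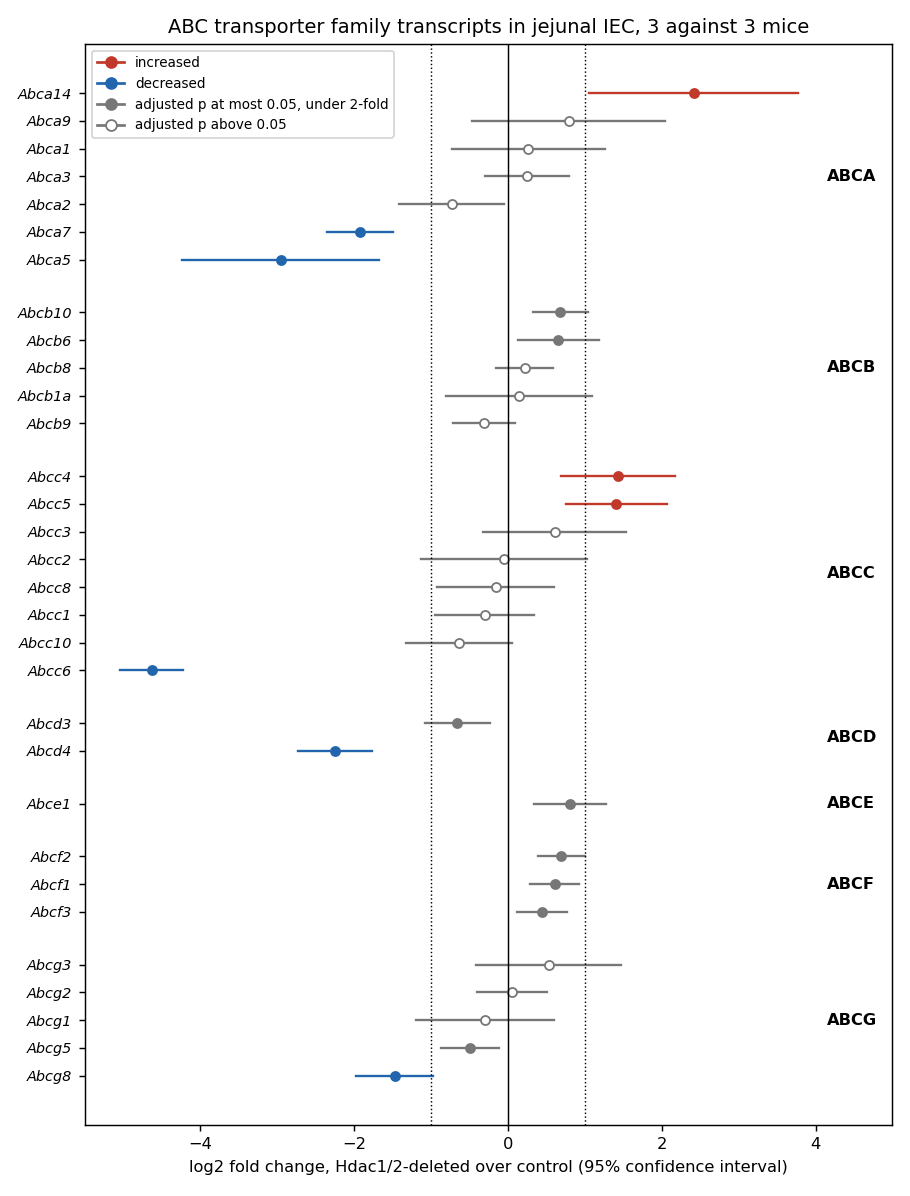
Log2 fold change in Hdac1/2-deleted over control IEC for 31 of the 33 tested members, by subfamily, with 95% confidence intervals from edgeR (3 mice per group). Dotted lines mark 2-fold; Abcc6 lies farthest to the left at -4.63 and Abca14 farthest to the right at 2.41, while the 4 ABCE and ABCF members all lie right of 0.

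Members were compared with each other as FPKM, the TMM-scaled CPM per kilobase of exon. Sterol transporters of the ABCG subfamily stood highest, Abcg5 at 177 ± 10 and Abcg8 at 175 ± 5.53 FPKM in control mice (SD, n = 3). Lower levels were those of the peroxisomal transporter Abcd3 (52.8 ± 7.43), the ribosome-associated Abcf1 (31.8 ± 3.04) and the drug pump Abcb1a (27.5 ± 12). The spreads overlapped between Abcg5 and Abcg8 and between Abcf1 and Abcb1a. In Hdac1/2-deleted mice Abcg5 stayed highest at 126 ± 21.3 FPKM, Abcg8 stood at 63.3 ± 18.2 and Abcf1 came after it at 48.4 ± 3.76. In control mice Abcc3 (23.1 ± 13.5 FPKM) and Abcc2 (22.1 ± 8.41) stood highest in ABCC, with overlapping spreads, and Abca3 had the highest mean in ABCA at 17.8 ± 5.91.

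**Figure D2:**
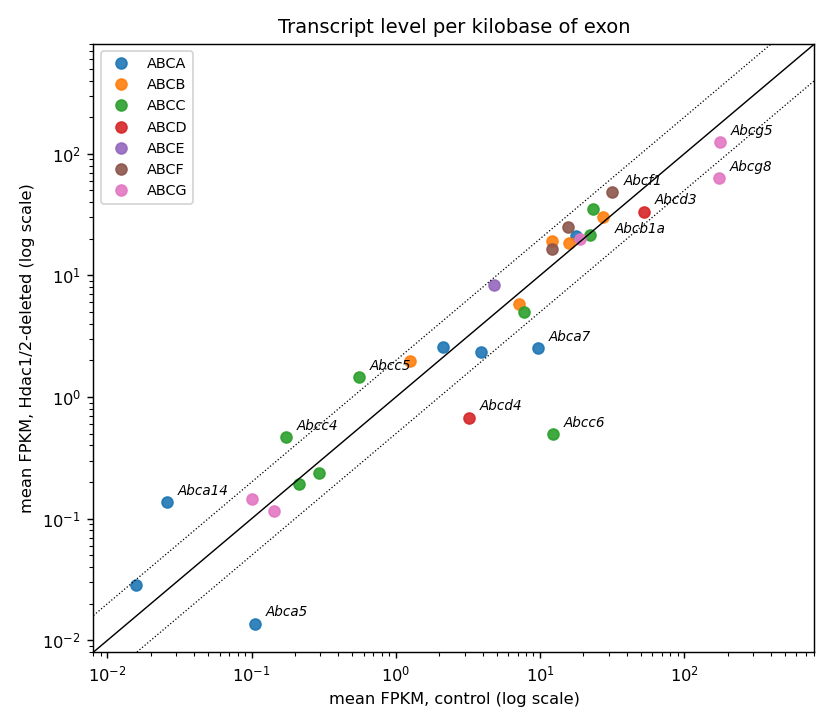
Mean FPKM of 31 of the 33 tested members in control (x axis) and Hdac1/2-deleted (y axis) IEC, both on log scales, coloured by subfamily. The solid line marks equal levels and the dotted lines 2-fold; Abcg5 and Abcg8 stand at the top right, with Abcg8 below the lower dotted line, and Abcc6 lies farthest below it.

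Transcripts of the sterol pump of the brush border were lower in mutant mice, Abcg8 by a larger estimate than Abcg5. ABCG5 and ABCG8 pair to form the pump that returns plant sterols and cholesterol from enterocytes to the lumen. Abcg8 lay at 648, 681 and 642 CPM in controls C3-3, C3 and C1 and at 272, 159 and 281 CPM in mutants H9, H5 and H1. Every mutant mouse was below every control mouse. Its log2 fold change was -1.47 (SE 0.22, edgeR adjusted p = 0.000938), a 2.77-fold decrease with a 95% interval of 1.96 to 3.92. Abcg5 lay at 497, 495 and 449 CPM in the controls and at 356, 277 and 389 CPM in the mutants, again without overlap. The log2 fold change of Abcg5 was -0.50 (SE 0.17, edgeR adjusted p = 0.0394), a 1.41-fold decrease that stayed under the 2-fold limit. This adjusted p ranged from 0.0310 to 0.174 over the alternatives and was above 0.05 without C3-3, C3, H9 or H5 and with library totals alone.

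The ratio of Abcg8 to Abcg5 CPM was 1.3, 1.38 and 1.43 in C3-3, C3 and C1 and 0.763, 0.573 and 0.723 in H9, H5 and H1. Abcg8 had more counts than Abcg5 in every control mouse and fewer in every mutant mouse. The mean log2 ratio differed by -1.01 (0.45 ± 0.07 in control and -0.55 ± 0.22 in mutant mice, SD, n = 3; two-sided exact permutation test, p = 0.1, the smallest that 3 against 3 mice allow, and 0.4 after Benjamini-Hochberg adjustment over the 4 pairs of members compared). The genes overlap by 82 exonic bases on opposite strands in the annotation, 2.19% of the Abcg8 exons. Whether the counting used the strand is not given in the sources used here.

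**Figure D3:**
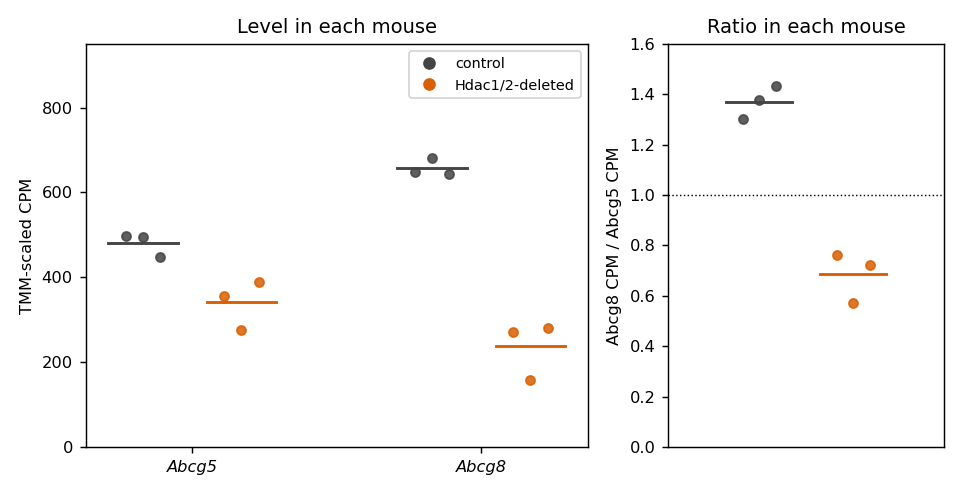
Left, TMM-scaled CPM of Abcg5 and Abcg8 in each mouse, with lines at the group means. Right, the ratio of Abcg8 to Abcg5 in the same mice; control mice sit at 1.3 to 1.43 and Hdac1/2-deleted mice at 0.573 to 0.763, on opposite sides of the dotted line at 1.

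Abcg5 and Abcg8 lie head to head on chromosome 17, and 109 bases separate their RefSeq starts in GRCm38 (chr17:84683012-84683120, plus strand, reading towards Abcg8). The stretch is shown because both genes start from it and yet their estimated changes differed in size. RefSeq gives Abcg8 a second, more distal start, which was not used here. Capitals mark matches on either strand to 5 short motifs, the GC box GGGCGG, the CCAAT box CCAAT, the TATA box TATAAA, the hexamer AGGTCA recognised by nuclear receptors and the GATA site AGATAA.
Abcg5-Abcg8: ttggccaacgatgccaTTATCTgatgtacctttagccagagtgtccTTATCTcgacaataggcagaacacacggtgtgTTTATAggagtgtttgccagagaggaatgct
It holds 2 GATA sites and 1 TATA box, all read on the minus strand, and none of the other letters. The last 109 bases before the start hold the GATA site in 3.98% and the TATA box in 5.90% of 32851 RefSeq windows. These are matches of letters, not shown sites of binding.

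The other sterol exporters were not called. ABCA1, on the basolateral membrane, loads cholesterol onto apolipoprotein A-I. Abca1 lay at 33.6, 9.67 and 23.3 CPM in C3-3, C3 and C1 and at 32.9, 20.5 and 26.5 CPM in H9, H5 and H1. C3 was the lowest of all 6 mice and the other controls lay among the mutants. In log2 terms the change was 0.26 (SE 0.42, 95% interval -0.73 to 1.26, edgeR adjusted p = 0.653), and it turned to -0.09 without C3. Abcg1, which exports cholesterol to lipoproteins, changed by -0.30 (adjusted p = 0.583), and Abcg4 had 3 to 17 counts per mouse and was not tested.

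The members that decreased most were Abcc6 in ABCC, Abcd4 in ABCD and Abca5 in ABCA. ABCC6 is a plasma membrane protein through which liver cells release ATP, and its loss causes the calcification disorder pseudoxanthoma elasticum. Abcc6 (chr7:45967555-46030302, minus strand) lay at 69.5, 79.5 and 61.8 CPM in C3-3, C3 and C1 and at 2.80, 2.47 and 3.20 CPM in H9, H5 and H1. All mutant mice were far below all control mice. Abcc6 changed by -4.63 on the log2 scale (SE 0.18, edgeR adjusted p = 1.94e-06), a 24.8-fold decrease with a 95% interval of 18.6 to 33.0. The alternatives gave -4.73 to -4.43. Abcc8, a sulfonylurea receptor gene 74220 bases away, changed by -0.16 (adjusted p = 0.735).

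ABCD4 is a lysosomal protein needed to move vitamin B12 into the cytosol. Abcd4 (chr12:84601464-84617413, minus strand) lay at 27.4, 29.7 and 20.4 CPM in C3-3, C3 and C1 and at 6.32, 4.42 and 5.55 CPM in H9, H5 and H1, without overlap. Abcd4 changed by -2.25 on the log2 scale (SE 0.22, edgeR adjusted p = 9.03e-05), a 4.75-fold decrease with a 95% interval of 3.39 to 6.66. ABCD3 sits in the peroxisomal membrane and imports branched-chain fatty acids and bile acid precursors for beta-oxidation. Abcd3 lay at 310, 404 and 331 CPM in the controls and at 271, 181 and 212 CPM in the mutants, which did not overlap. Its log2 fold change was -0.66 (SE 0.19, edgeR adjusted p = 0.0207), under the 2-fold limit, and the adjusted p rose to 0.0602 without C3, 0.0777 without H5 and 0.0655 without H1.

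ABCA7 moves phospholipids and is best known in brain and phagocytes. Abca7 (chr10:79996494-80015572, plus strand) lay at 63.4, 81.8 and 49.6 CPM in C3-3, C3 and C1 and at 17.3, 16.7 and 17.3 CPM in H9, H5 and H1. The mutant mice lay close together, below every control. Abca7 changed by -1.93 on the log2 scale (SE 0.19, edgeR adjusted p = 0.000102), a 3.8-fold decrease with a 95% interval of 2.82 to 5.12. Abca5 (chr11:110269369-110337716, minus strand), whose product is found in lysosomes and late endosomes, was a low transcript. It lay at 1.66, 1.49 and 0.483 CPM in the controls, from 88, 83 and 32 counts, and at 0.179, 0.184 and 0.108 CPM in the mutants, from 11, 7 and 8 counts. Abca5 changed by -2.95 on the log2 scale (SE 0.56, edgeR adjusted p = 0.00310), with a 95% interval of -4.23 to -1.67. All controls but not all mutants reached the count filter, so Abca5 was testable only through the controls, where it was high.

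Control C1 was the lowest control for Abca7 and Abca5, and also for Abcc6, Abcd4 and Abcg8. The summed level of 9 T lymphocyte markers was 392.1, 450.9 and 122 CPM in C3-3, C3 and C1 and 116, 147 and 61.6 CPM in H9, H5 and H1, and its part in these results was not tested. Of the 9 T lymphocyte markers, 2 decreased and 1 increased. Without C1 the calls of Abca7 and Abca5 held. Over all leave-one-out fits the log2 fold change was -2.08 to -1.72 for Abca7 and -3.33 to -2.65 for Abca5.

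The 250 bases before the start are printed for the 3 called members with a single RefSeq window whose start matches the 5′ end of the gene in the annotation. Abca7 and Abca5 decreased and Abcc5 increased. The letters are 5′ to 3′ on the strand of the gene in GRCm38, with capitals for the same 5 motifs. The windows are chr10:79996244-79996493 (plus), chr11:110337717-110337966 (minus) and chr16:20426395-20426644 (minus).
Abca7: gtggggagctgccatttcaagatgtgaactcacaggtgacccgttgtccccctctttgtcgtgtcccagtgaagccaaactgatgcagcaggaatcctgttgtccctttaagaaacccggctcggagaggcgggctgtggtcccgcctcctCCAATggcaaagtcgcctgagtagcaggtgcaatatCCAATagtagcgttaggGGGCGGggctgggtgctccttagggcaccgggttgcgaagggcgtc
Abca5: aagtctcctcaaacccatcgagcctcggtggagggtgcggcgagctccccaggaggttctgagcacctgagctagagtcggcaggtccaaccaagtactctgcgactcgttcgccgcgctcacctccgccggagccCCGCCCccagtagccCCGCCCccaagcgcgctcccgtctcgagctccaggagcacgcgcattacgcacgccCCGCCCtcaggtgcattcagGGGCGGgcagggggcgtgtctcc
Abcc5: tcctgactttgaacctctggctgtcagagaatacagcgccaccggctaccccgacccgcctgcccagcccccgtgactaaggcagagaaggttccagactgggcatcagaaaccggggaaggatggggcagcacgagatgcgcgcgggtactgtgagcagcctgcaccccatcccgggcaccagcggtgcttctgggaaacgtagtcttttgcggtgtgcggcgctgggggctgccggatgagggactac
The Abca7 window holds 1 GC box and 2 CCAAT boxes, the Abca5 window 4 GC boxes and no CCAAT box, and the Abcc5 window none of the 5 motifs. Matches did not overlap each other. Of all 32851 windows of this length, 32.7% hold a GC box, 33.8% a CCAAT box, 12.4% a TATA box, 14.0% the hexamer AGGTCA and 9.99% a GATA site. Of the 32 members with a window, 17 hold a GC box and 12 a CCAAT box in any of their windows. A member can have several windows, so these counts cannot be set against the shares of single windows. Abcc6 and Abcd4 were not matched.

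**Figure D4:**
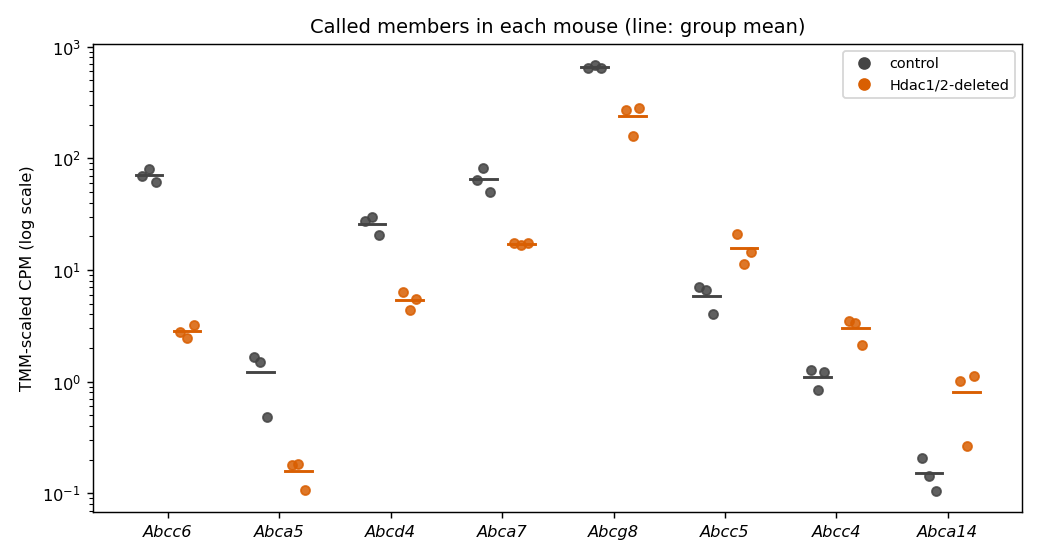
TMM-scaled CPM on a log scale for the 8 called members in each mouse, control in grey and Hdac1/2-deleted in orange, with lines at the group means. The groups do not overlap for any of the 8, which were chosen by the test of group difference. Of all genes tested, 53.2% do not overlap in either direction. Levels run from 0.106 CPM for Abca14 in controls to 681 CPM for Abcg8 in C3.

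The increased members were low or moderate transcripts. ABCC4 and ABCC5 export cyclic nucleotides and nucleotide analogues, and ABCC4 also carries prostaglandins. Abcc5 (chr16:20331303-20426394, minus strand) lay at 7.02, 6.61 and 4.06 CPM in C3-3, C3 and C1 and at 21, 11.4 and 14.5 CPM in H9, H5 and H1. The lowest mutant was above the highest control. Abcc5 changed by 1.41 on the log2 scale (SE 0.29, edgeR adjusted p = 0.00462), a 2.66-fold increase with a 95% interval of 1.68 to 4.20. Abcc4 (chr14:118482692-118706219, minus strand) lay at 1.28, 0.846 and 1.21 CPM in the controls and at 3.53, 3.34 and 2.13 CPM in the mutants, without overlap. Its log2 fold change was 1.43 (SE 0.33, edgeR adjusted p = 0.00768), a 2.69-fold increase with a 95% interval of 1.61 to 4.51.

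Abca14, a full-length ABCA gene of rodents known from testis, stood near the detection floor. It lay at 0.207, 0.144 and 0.106 CPM in C3-3, C3 and C1, from 11, 8 and 7 counts, and at 1.01, 0.263 and 1.13 CPM in H9, H5 and H1, from 62, 10 and 84 counts. H9 and H1 were well above all controls and H5 only just. Abca14 changed by 2.41 on the log2 scale (SE 0.60, edgeR adjusted p = 0.0114), with a wide 95% interval of 1.05 to 3.78. Among the controls only C3-3 reached the count filter, so Abca14 was testable only through the mutants, where it was high. It was not called at an adjusted p limit of 0.01, and a filter of 10 counts in every sample removed it.

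Among the drug and conjugate pumps of the enterocyte, Abcb1a and Abcc2 varied widely between mice of a group. Abcc3 varied widely among controls, and Abcg2 varied less. ABCB1 (P-glycoprotein), ABCG2 and ABCC2 sit in the brush border and pump drugs and conjugates back to the lumen, and ABCC3 sits basolaterally and passes conjugates to the blood. Abcb1a lay at 226, 107 and 119 CPM in C3-3, C3 and C1 and at 220, 90.3 and 190 CPM in H9, H5 and H1. Its log2 fold change was 0.15 (95% interval -0.80 to 1.1, edgeR adjusted p = 0.801). Abcc2 lay at 251, 204 and 110 CPM in the controls and at 254, 85 and 206 CPM in the mutants. In both genes the highest mutant was H9, the lowest mutant was H5 and the highest control was C3-3. The log2 fold change of Abcc2 was -0.05 (95% interval -1.13 to 1.03, edgeR adjusted p = 0.943), and its interval holds a 2-fold change in either direction.

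Abcg2 lay at 150, 191 and 125 CPM in C3-3, C3 and C1 and at 197, 156 and 133 CPM in H9, H5 and H1, fully intermixed. The log2 fold change was 0.06, with a 95% interval of -0.40 to 0.51 that lies within 2-fold (edgeR adjusted p = 0.839). Abcc3 lay at 112, 217 and 67.1 CPM in the controls and at 212, 223 and 169 CPM in the mutants. Only C3 lay among the mutants. The log2 fold change of Abcc3 was 0.61 (95% interval -0.32 to 1.54, edgeR adjusted p = 0.260), and without C3 it was 1.17 with an adjusted p of 0.00633 and Abcc3 was then called. The log2 ratio of Abcc3 to Abcc2 differed by 0.87 between the groups, with overlap (exact permutation p = 0.3).

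Abcb1a has a close copy, Abcb1b, 49571 bases away on chromosome 5, and reads from matching stretches could be divided between them by the counting. Abcb1b had 2 to 8 counts per mouse (2, 3, 3, 2, 3 and 8 in C3-3, C3, C1, H9, H5 and H1), against 3432 to 14047 counts for Abcb1a. The next gene of that cluster, Abcb4, which exports phosphatidylcholine into bile in liver, had 1 to 4 counts in each mouse (1, 4, 4, 2, 1 and 1). Neither was tested, and a change was not detectable at this depth. Their levels were at or near the floor of 3 counts per library. Of the remaining ABCC pumps, Abcc1 changed by -0.30 (adjusted p = 0.427) and Abcc10 by -0.64 (adjusted p = 0.126).

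In the ABCB subfamily, shifts of the members of mitochondria and lysosomes stayed under 2-fold, and Abcb10 and Abcb6 were higher. Abcb10, an inner mitochondrial membrane protein tied to heme synthesis, was 0.68 higher on the log2 scale (adjusted p = 0.00773), from 43.0 to 56.6 CPM in controls to 75.3 to 94.1 CPM in mutants without overlap. Abcb6, a porphyrin transporter, was 0.66 higher (adjusted p = 0.0487), and the adjusted p was 0.0627 to 0.138 without C3-3, C1, H9, H5 or H1. Its groups did not overlap either, but 55.2% of its exonic bases are shared with a non-coding transcript on the same strand. Abcb8, of the inner mitochondrial membrane, changed by 0.22 (adjusted p = 0.321) and the lysosomal peptide transporter Abcb9 by -0.31 (adjusted p = 0.195).

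The 4 soluble members moved together in direction. ABCE1 splits ribosomes into their subunits after termination, and ABCF1, ABCF2 and ABCF3 bind ribosomes, ABCF1 at initiation. Abcf1, the highest of them per length, lay at 155, 131 and 134 CPM in C3-3, C3 and C1 and at 223, 223 and 194 CPM in H9, H5 and H1, without overlap. Abcf1 changed by 0.61 on the log2 scale (SE 0.14, edgeR adjusted p = 0.00748). Abce1 lay at 23.0, 26.9 and 36.7 CPM in the controls and at 42.6, 47.6 and 61.2 CPM in the mutants, also without overlap. Abce1 changed by 0.81 on the log2 scale (SE 0.21, edgeR adjusted p = 0.0132), and without C1 it reached 1.02 and Abce1 was called. Abcf2 was 0.69 higher (adjusted p = 0.00350) and Abcf3 0.44 higher (adjusted p = 0.0354), both without overlap. The adjusted p of Abcf3 was 0.0668 to 0.107 without C3-3, C1, H9 or H1, and that of Abce1 was 0.0509 without H1. All of these rises were under 2-fold, and their median log2 fold change was 0.65, against -0.01 over all genes. Of all genes tested, 53.2% did not overlap between the groups in either direction, and 20.5% were higher by the adjusted p alone.

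**Figure D5:**
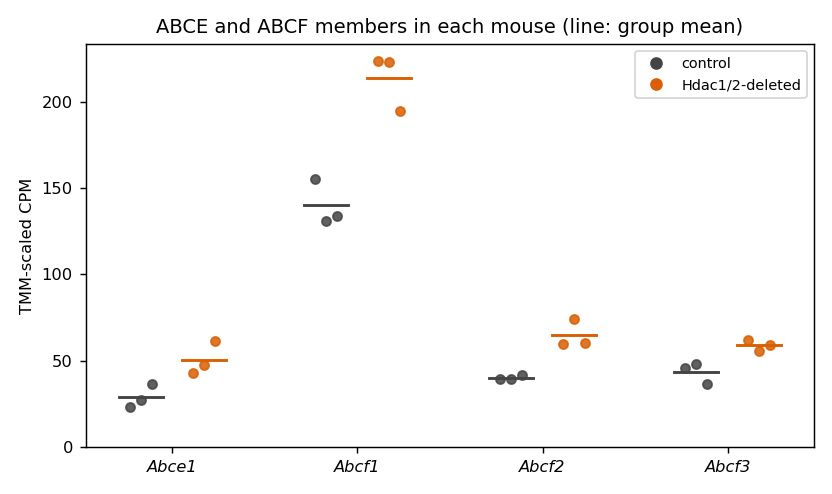
TMM-scaled CPM of Abce1, Abcf1, Abcf2 and Abcf3 in each mouse, control in grey and Hdac1/2-deleted in orange, with lines at the group means. In each of the 4 genes every mutant mouse lies above every control mouse. Of all genes tested, 53.2% do not overlap between the groups in either direction.

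Of the other tested ABCA and ABCG members, Abca3, which loads phospholipid into lamellar bodies in lung, had the highest FPKM of its subfamily. It lay at 151, 229 and 122 CPM in C3-3, C3 and C1 and at 213, 221 and 162 CPM in H9, H5 and H1. C3 was above all other mice and the groups overlapped (log2 fold change 0.25, SE 0.24, edgeR adjusted p = 0.434). Abca2, an endolysosomal member, lay at 48.7 CPM in C3 and at 18.6 to 29.6 CPM in the other mice, with a log2 fold change of -0.73 (adjusted p = 0.0843). Abca9 (0.79) and Abcg3 (0.53) were low transcripts and were not called.

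The 9 members that were not tested, Abca13, Abca17, Abca8a, Abca8b, Abcb1b, Abcb4, Abcc12, Abcc9 and Abcg4, had 0 to 48 counts per mouse. Without Abcc9, the sulfonylurea receptor of vascular and other smooth muscle, the highest count was 24. Abcc9 had 8, 24 and 48 counts in C3-3, C3 and C1 and 2, 2 and 1 counts in H9, H5 and H1. The sum of 5 smooth muscle markers was 2.56, 48.4 and 63.9 CPM in C3-3, C3 and C1 and 0.283 to 0.390 CPM in the mutants, in the same order among the controls. Its part in the Abcc9 counts was not tested. Abcc9 was called decreased by DESeq2, without a count filter, and when C3-3, H9, H5 or H1 was left out. Leaving out a mouse lowers the number of samples that the count filter requires. Abcc9 then passed it only through C1 and C3, where it was high, so the leave-one-out calls add no support.

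Some ABC genes carry other symbols. TAP1 and TAP2 pair to load peptides for MHC class I, and CFTR is a chloride channel of the ABCC subfamily. Tap2 lay at 148, 277 and 106 CPM in C3-3, C3 and C1 and at 75.3, 94.2 and 58.6 CPM in H9, H5 and H1, and decreased by 1.22 on the log2 scale (SE 0.36, edgeR adjusted p = 0.0300). This call was lost without C3, without H9 and without H1. Tap1 lay at 81.2, 58.5 and 39.0 CPM in the controls and at 66.4, 88.1 and 56.1 CPM in the mutants (log2 fold change 0.24, adjusted p = 0.522). Cftr was 0.50 higher (adjusted p = 0.0305), from 86.3 to 109 CPM in controls to 116 to 152 CPM in mutants.

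Genes that work with the transporters were followed in lists. Of 12 genes of cholesterol uptake, esterification and lipoprotein assembly, 4 increased and 3 decreased, where 12.4% and 12.7% of all genes did. Without H9, or at an adjusted p limit of 0.01, only 2 of them increased. Among them, the sterol uptake gene Npc1l1 decreased (log2 fold change -1.57, adjusted p = 0.00346) and so did the apolipoprotein gene Apoa4 (-2.61, adjusted p = 0.000731), while the HDL receptor gene Scarb1 increased (2.57, adjusted p = 0.0101). Lcat (4.22) also passed, from at most 2 counts in each control, so it was testable only through the mutants, where it was high. With at least 10 counts required in every sample, 3 genes of the list increased. Of 8 targets of the sterol sensor LXR outside the family, Mylip (-2.69), Srebf1 (-1.94) and Smpdl3a (-1.74) decreased, Apoe increased (1.16, adjusted p = 0.0447), and 4 were not called. The call of Apoe was lost without C3-3, without C3, without H9, without a count filter and at an adjusted p limit of 0.01. Of the LXR targets within the family described above, Abcg8 decreased, Abcg5 was lower by less than 2-fold, and Abca1 and Abcg1 were not called.

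Of 16 nuclear receptors and xenobiotic sensors, 2 decreased, Vdr (-1.40, adjusted p = 0.000309) and Nr1i3 (-1.32, adjusted p = 0.000451), and none increased. The shares of all genes, for this and the lists below, were 12.7% decreased and 12.4% increased. By the adjusted p alone 7 of the 16 were lower and 1 was higher, against 20.3% and 20.5% of all genes. Without C1 or with library totals alone, Nr1h4 increased. Of 12 genes that make glutathione or the conjugates carried by ABCC pumps, Gsta4 (2.42) and Gsr (1.70) increased and 4 decreased, among them Ugt1a1 (-2.32) and Sult1b1 (-1.86). Of 14 genes of peroxisomal beta-oxidation and ABCD partners, Scp2 (-1.78), Hsd17b4 (-1.41) and Acaa1b (-1.35) decreased and none increased. The median over that list was -0.58, against -0.01 over all genes.

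Of 16 mitochondrial heme and iron-sulfur partners of the ABCB members, none was called. By the adjusted p alone 2 were higher and 5 lower, against 20.5% and 20.3% of all genes. Glrx5 increased without C3, without H1 and with library totals alone. Of 11 ribosome recycling and GCN2 partners of ABCE1 and the ABCF proteins, none was called. By the adjusted p alone 5 were higher and 0 lower, and the median was 0.49, against -0.01 over all genes. Eif2s1 increased without C1 and with library totals alone. Of 10 partners of TAP in peptide loading, 4 decreased, H2-K1 (-2.11), B2m (-1.62), Tapbp (-1.11) and Tapbpl (-1.04), and none increased. Without C3, or with library totals alone, Tapbp and Tapbpl were not called and 2 decreased. The one tested channel partner of the sulfonylurea receptors, Kcnj11, was not called (0.35). Kcnj8 was not tested, and it was called decreased by DESeq2, without a count filter and without C3, H9, H5 or H1. The count filter asks for fewer samples once a mouse is left out, so those leave-one-out calls add no support.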

How the data were processed

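RNA-Seq was made on jejunal IEC, enriched with EDTA, of 3 control and 3 Hdac1/2-deleted mice, with 1 library per mouse, so p-values measure the spread between these mice. Poly(A) RNA was made into directional libraries. The authors aligned reads with STAR and deposited raw counts per gene. The methods name GRCm38 and the submitters' processing notes list STAR 2.4.0f1 and the build mm9. The counting program, its strand setting and its annotation are not given in the sources used here. The table also holds the authors' scaled counts, fold changes and p-values, which were not used.

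Counts were tested with edgeR 4.0.16 in R 4.3.3 (filterByExpr, TMM, robust quasi-likelihood, prior count 0.125, no covariates). P-values were adjusted over 15618 genes by the Benjamini-Hochberg method. Calls needed an adjusted p of at most 0.05 and 2-fold. Ratios of members were compared by exact permutation in SciPy. FPKM here is TMM-scaled CPM per kilobase of merged exons in GENCODE M21 (GRCm38), which also gave positions. Promoter windows came from RefSeq (GRCm38.p6) for 32 of 42 members and do not come from the deposited file. The floor of 3 counts corresponds to 0.0405 to 0.0790 CPM per library and covers counting error only. The values of 2 tested members are not reported here, though counts and medians over members include them.

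The members and lists were chosen with earlier results of these data known. Full values are given for each called member, for Abca1, Abcb1a, Abcb1b, Abcb4, Abcc2, Abcc3, Abcg2, Abcg5 and Abcg8 and for the member of highest FPKM in each subfamily, and up to 4 called genes are named per list. Genes outside this rule were named after their values were seen. Alternatives changed the normalization, the test (DESeq2 1.42.0), the count filter, the call limits and the prior count, and left out each mouse in turn.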

Additional observations from a re-analysis of the deposited data

How the results depend on the processing

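All 8 called members kept their direction in every setting that tested them. A filter of 10 counts in every sample left Abca14 and Abca5 untested, and an adjusted p limit of 0.01 ended the call of Abca14. Without a fold limit 9 members increased in place of 3. With library totals alone as the scaling, the median log2 fold change over members was 0.25 in place of 0.06, while the median over all genes moved from -0.01 to 0.18, and Abcc2 turned from -0.05 to 0.16. Fits without 1 of the 6 mice gave 3 to 4 increased members, 5 to 6 decreased members and a median of -0.10 to 0.19. Among members that were not called, the same fits gave -0.089 to 0.70 for Abca1, -0.10 to 0.57 for Abcb1a, -0.36 to 0.30 for Abcc2 and -0.10 to 0.24 for Abcg2, and the cause of these reversals was not tested. The difference in the log2 ratio of Abcb1b to Abcb1a, near the floor, turned from 0.40 to -0.059 with 0.5 CPM added. Settings that changed only the call limits were left out of the tally of log2 fold changes. Of 262 log2 fold changes of 22 members over the other settings, 251 kept direction and side of the threshold and 9 reversed. The remaining 2, Abcc3 without C3 and Abce1 without C1, passed the threshold. Of 260 counts of called genes in the lists, 37 moved by over 1.5 times. No paired analysis was possible because the mouse names do not number the same replicates in both groups. The smallest exact p for 3 against 3 mice is 0.1, so the ratios of members cannot reach 0.05.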

Other observations

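Neighbours of the called members were examined after their values were seen, within 100 kb on either side in GENCODE M21. Of 31 tested neighbours, counted once per member, 5 increased and 1 decreased, against 12.4% and 12.7% of all genes tested, so nothing particular to these regions can be read from the count. Abca7 had 11 tested neighbours, of which R3hdm4 (log2 fold change 1.45, edgeR adjusted p = 6.08e-05), Arid3a (1.62, adjusted p = 0.000111) and Wdr18 (1.09, adjusted p = 0.00126) increased while Abca7 decreased. Nomo1, 3396 bases from Abcc6, increased by 1.17 (adjusted p = 0.000957), and Grin2d, 89177 bases from Abcc6 on the other side, decreased by 2.28 on the log2 scale (adjusted p = 0.000769). Lrpprc, 4914 bases from Abcg8, increased by 1.20 (adjusted p = 0.000285). None of the tested neighbours of Abcc5 (4), Abca14 (3), Abca5 (1) or Abcd4 (1) was called.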
